A study of Mus musculus with 12 samples.

Results

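Marker genes of marrow and blood cells were followed across preparations of the mouse auditory nerve. The set holds 37 of the 18193 genes represented on the arrays, namely 13 of neutrophils, 8 of erythroid cells, 13 of B cells and 3 of T cells. A member was taken where the probe annotation gave exactly its symbol, and of several probe sets for a gene the one with the highest mean over the 12 arrays was used. All 37 members were measured. The mice were CBA/CaJ adults of both sexes, aged 8 to 12 weeks. The right ear was operated on and received ouabain, an inhibitor of the sodium pump that kills spiral ganglion neurons, at 3 mM in the round window niche for 60 min in all. The left ear of treated mice was not operated on and served as the control. The 4 groups were ouabain at 3 days, control at 3 days, ouabain at 7 days and control at 7 days, with 3 Affymetrix mouse gene arrays in each. Every array carried RNA pooled from 2 preparations of the modiolus, the bony core of the cochlea that holds the auditory nerve and the spiral ganglion. The controls therefore lacked the surgery as well as the drug, and an effect of ouabain and an effect of surgery cannot be told apart. The sources do not say which animals entered which pool, so a p-value measures only the spread between these pooled samples.

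Neutrophils ripen in the marrow in steps. The serine proteases and myeloperoxidase of the primary granules are made first, and the proteins of the later granules and the S100 proteins of the cytosol follow as the cell matures. Red cell precursors build haem, haemoglobin and membrane proteins under the transcription factors Gata1 and Klf1, and developing B cells rearrange their antibody genes and pass through a stage with a surrogate light chain. Bone of the skull contains marrow, and blood stays in the vessels of dissected tissue.

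The values were the log2 expression values deposited by the authors. The array medians lay between 6.01 and 6.09, and the lower quartile of all values was 4.32, so levels near 4 were among the dimmest on the arrays. Nervous tissue was plain on every array. Mbp, the myelin basic protein, averaged 13.79, and the 5 neuronal genes of the tissue check (Snap25, Nefl, Nefm, Thy1 and Tubb3) all fell in ouabain ears at both days, their median change on the log2 scale being -2.10 (3 days) and -3.27 (7 days). In bulk RNA fewer cells of a type and less RNA per cell cannot be told apart. The number of arrays limited the precision.

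Promoters are shown for 3 neutrophil and 3 erythroid members whose levels varied widely and moved with their class. Each was shown with letters that its promoter holds. Each run is the 250 bases upstream of the annotated start (RefSeq, GRCm38.p6), 5′ to 3′ along the gene. Of the 37 members 32 were matched in the promoter table, and Cd79b, Ighm, Car1, Ms4a1 and Slc4a1 were not. In the primary granule genes Ctsg (chr14:56102575-56102824, minus strand) and Prtn3 (chr10:79879417-79879666, plus strand) capitals mark GAGGAA, the core letters bound by PU.1. In the later granule gene Ngp (chr9:110419558-110419807, plus strand) capitals mark TTGCNNAA, letters bound by C/EBP factors, or its reverse complement. In the erythroid genes Alas2 (chrX:150547167-150547416, plus strand), Klf1 (chr8:84901732-84901981, plus strand) and Rhag (chr17:40810899-40811148, plus strand) capitals mark AGATAA or TGATAA, letters bound by GATA factors, here in reverse complement.
Ctsg: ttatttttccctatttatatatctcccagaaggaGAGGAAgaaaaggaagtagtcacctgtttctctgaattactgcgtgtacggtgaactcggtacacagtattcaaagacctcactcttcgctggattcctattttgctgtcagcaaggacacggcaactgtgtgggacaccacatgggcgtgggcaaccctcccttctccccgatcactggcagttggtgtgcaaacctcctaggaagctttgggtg
Prtn3: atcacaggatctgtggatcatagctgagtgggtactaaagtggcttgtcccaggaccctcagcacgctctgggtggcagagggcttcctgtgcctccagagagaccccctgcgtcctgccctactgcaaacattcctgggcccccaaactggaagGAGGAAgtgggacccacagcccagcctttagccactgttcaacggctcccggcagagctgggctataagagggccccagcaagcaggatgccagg
Ngp: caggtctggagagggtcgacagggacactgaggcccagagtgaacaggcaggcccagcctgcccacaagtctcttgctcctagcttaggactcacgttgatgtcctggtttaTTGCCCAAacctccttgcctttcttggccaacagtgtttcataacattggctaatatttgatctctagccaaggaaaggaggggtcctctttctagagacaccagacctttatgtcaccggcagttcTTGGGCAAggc
Alas2: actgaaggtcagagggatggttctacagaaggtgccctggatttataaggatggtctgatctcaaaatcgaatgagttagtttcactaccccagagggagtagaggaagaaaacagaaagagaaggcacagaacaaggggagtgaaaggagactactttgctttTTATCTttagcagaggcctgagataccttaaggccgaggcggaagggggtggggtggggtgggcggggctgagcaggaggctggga
Klf1: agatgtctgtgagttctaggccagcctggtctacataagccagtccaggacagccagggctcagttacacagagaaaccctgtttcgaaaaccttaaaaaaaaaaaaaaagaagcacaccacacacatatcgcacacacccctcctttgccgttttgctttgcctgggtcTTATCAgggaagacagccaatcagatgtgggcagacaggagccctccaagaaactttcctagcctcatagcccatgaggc
Rhag: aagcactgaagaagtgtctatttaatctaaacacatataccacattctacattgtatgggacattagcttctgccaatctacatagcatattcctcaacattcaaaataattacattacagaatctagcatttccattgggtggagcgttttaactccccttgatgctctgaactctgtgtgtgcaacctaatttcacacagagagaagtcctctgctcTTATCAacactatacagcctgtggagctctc

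All these letters were searched on both strands, the GATA letters also with a final G in place of A, and no pattern contains another. The GATA letters occurred in 5 of 6 erythroid promoters (Epb42, Klf1, Hba-a1, Rhag and Alas2), in 4 of 13 neutrophil promoters, in 3 of 10 B cell promoters and in 26.5% of the 32851 promoters of the table. The C/EBP letters occurred in 5 of 13 neutrophil promoters (Fcnb, S100a9, Mmp8, Ngp and Ltf), in 0 of 6 erythroid promoters and in 9.56% of all promoters. The PU.1 letters occurred in 8 of 13 neutrophil and 4 of 6 erythroid promoters and in 23.3% of all. Camp and S100a8 varied widely without the C/EBP letters, and Ms4a3 without the PU.1 letters. A match describes the letters in the window only, and other patterns were looked at and are not shown.

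By the median SD, neutrophil markers differed more between arrays of 1 group than those of the other 3 classes. S100a8 and S100a9, which together form calprotectin, averaged 12.33 and 12.05, and 12 of the 13 members averaged above 6, Cd177 being the exception. The SD within groups, pooled over the 4 groups, had a median of 0.91 on the log2 scale for the 13 members and of 0.14 for all genes, and 12 of the 13 lay above 0.368, the 95th percentile of all genes. Fcnb, a ficolin of neutrophils, was the exception at 0.27.

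Ctsg, the primary granule protease cathepsin G, gave the largest range of the class. Its log2 levels were 6.34, 9.59 and 10.22 in ouabain ears and 7.78, 9.05 and 9.94 in control ears at 3 days. At 7 days they were 6.03, 5.79 and 6.31 in ouabain ears and 8.06, 6.14 and 5.99 in control ears. The groups overlapped at both days, and the highest array stood 21.5-fold above the lowest. Ouabain replicate 1 lay low among the 3-day arrays, and control replicate 1 lay high among those of 7 days. Ngp, a granule protein of maturing neutrophils, had log2 levels of 9.77, 10.41 and 10.65 in ouabain ears and 10.62, 10.28 and 10.36 in control ears at 3 days. At 7 days its levels were 10.08, 8.92 and 9.70 in ouabain ears and 11.71, 10.22 and 8.43 in control ears. The 7-day controls thus held both the highest and the lowest Ngp value of all 12 arrays, 9.77-fold apart.

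Camp, the precursor of the antimicrobial peptide cathelicidin, and Mmp8, the neutrophil collagenase, had that same order among the 7-day controls. Camp had 9.28, 9.74 and 9.87 in ouabain ears and 10.29, 9.35 and 9.29 in control ears at 3 days, and 9.41, 8.32 and 9.16 in ouabain ears and 11.22, 9.65 and 7.93 in control ears at 7 days. For Mmp8 the log2 levels were 6.41, 6.51 and 6.61 in ouabain ears and 7.63, 6.68 and 7.12 in control ears at 3 days, where the groups did not overlap. Mmp8 had 6.65, 5.34 and 6.33 in ouabain ears and 8.60, 6.45 and 5.32 in control ears at 7 days, where they overlapped widely.

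**Figure D1:**
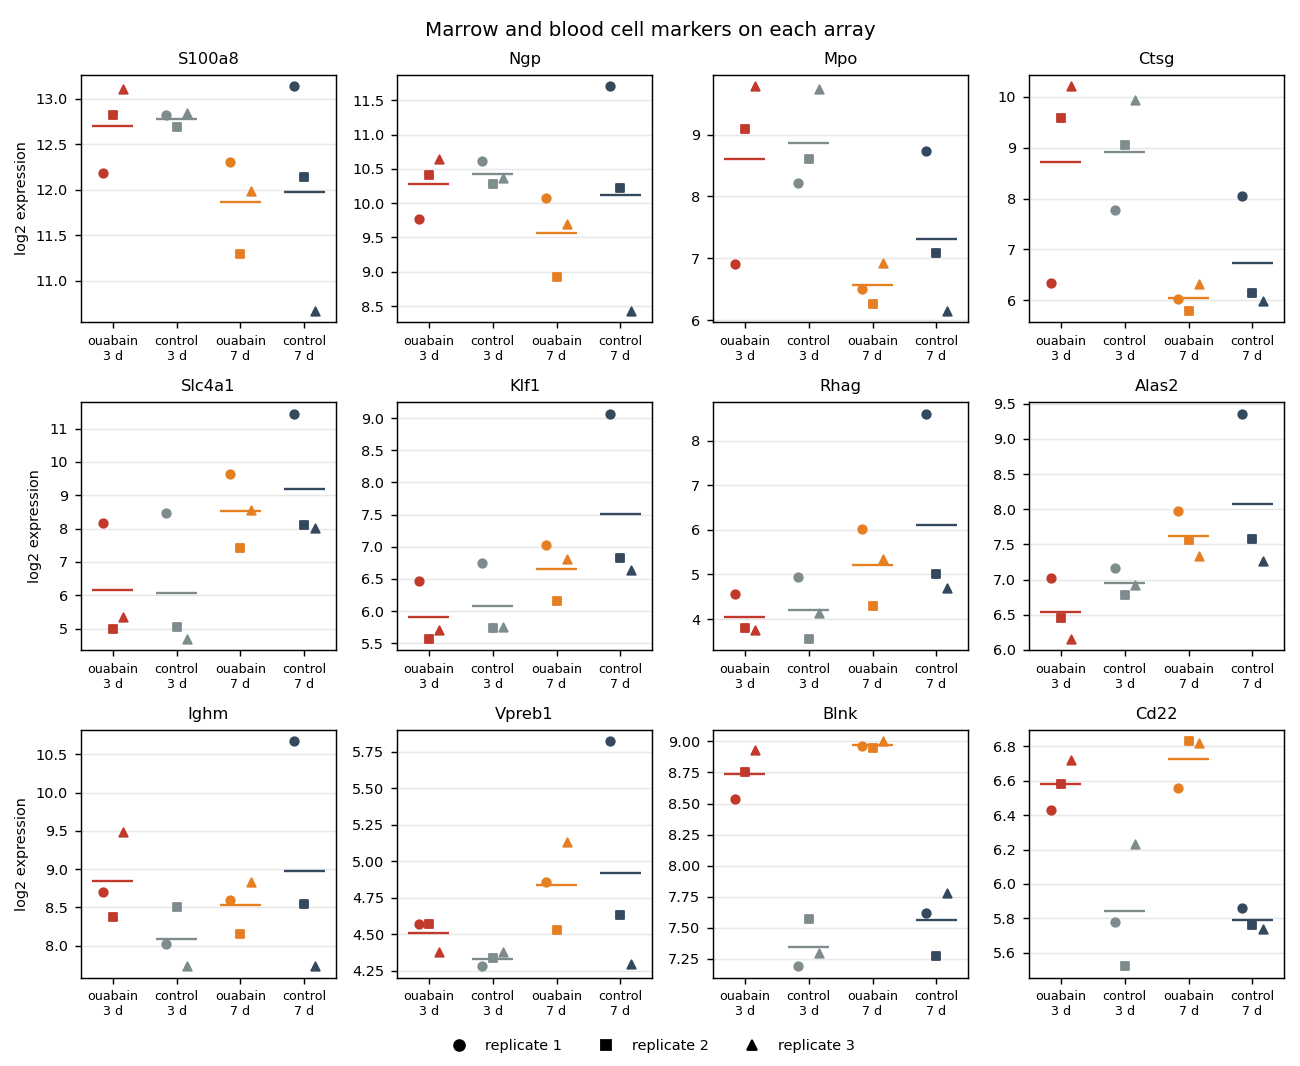
Log2 expression of 12 markers (vertical axes, 1 panel per gene) on each of the 12 arrays, by group; symbols give the replicate number and lines the group means (n = 3). The highest control array at 7 days is replicate 1 for S100a8, Ngp, Mpo, Ctsg, Slc4a1, Klf1, Rhag, Alas2, Ighm and Vpreb1, whereas only Blnk and Cd22 separate ouabain from control at both days.

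The neutrophil markers were split into 2 sets after their values were seen, and Fcnb was placed in neither. For the primary granule genes Mpo (myeloperoxidase), Elane (neutrophil elastase), Prtn3 (proteinase 3) and Ctsg, with Ms4a3, a marker of granulocyte and monocyte precursors, the array medians relative to the mean of all 12 arrays were -0.82, 1.42 and 1.96 in ouabain ears and 0.12, 0.95 and 1.69 in control ears at 3 days. At 7 days they were -1.32, -1.40 and -0.79 in ouabain ears and 0.41, -0.76 and -1.61 in control ears. This set lay above its mean on 5 of the 6 arrays of 3 days and below it on 5 of the 6 arrays of 7 days. The later set held S100a8, S100a9, Ngp, Camp, Ltf (lactoferrin), Mmp8 and Cd177, a neutrophil surface protein. Its medians were -0.25, 0.32 and 0.69 in ouabain ears and 0.52, 0.36 and 0.47 in control ears at 3 days, and -0.03, -1.27 and -0.31 in ouabain ears and 1.53, -0.12 and -1.53 in control ears at 7 days. The medians of the later set lay close together in the 3-day controls and furthest apart in the 7-day controls. Single genes of the set had ranges in the 3-day controls from 0.14 (S100a8) to 1.0 (Camp). With the group means removed, the correlation of each later-set gene with the mean of the others ran from 0.82 (Cd177) to 0.99 (S100a8, S100a9 and Ngp) over the 12 arrays, and that of each primary granule gene from 0.89 (Elane) to 0.99 (Prtn3). The sets were chosen on these arrays, so these correlations only describe them. With the rest of the whole class each neutrophil marker correlated at 0.75 (Mmp8 and Ms4a3) to 0.96 (Cd177). Cd177 thus followed the whole class more closely than its own set.

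Which array was high was shared by the class. Ouabain replicate 3 at 3 days was the highest of its group for 13 of 13 neutrophil markers and replicate 1 the lowest for 13 of 13. In the 7-day controls replicate 1 was the highest for 13 of 13 and replicate 3 the lowest for 13 of 13. Over all genes the corresponding shares were 34.5% and 37.2% in the 3-day ouabain group, and 30.2% and 35.4% in the 7-day controls.

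Erythroid markers often had their highest values on arrays numbered 1. Replicate 1 was the highest of its group for 5 of 8 members in the 3-day ouabain group, 5 of 8 in the 3-day controls, 6 of 8 in the 7-day ouabain group and 8 of 8 in the 7-day controls. Slc4a1, the band 3 anion exchanger of the red cell membrane, had the widest spread of the whole set, with an SD within groups of 1.76 and 108-fold between its highest and lowest array. Its log2 levels were 8.17, 5.0 and 5.34 in ouabain ears and 8.47, 5.05 and 4.70 in control ears at 3 days. At 7 days they were 9.65, 7.41 and 8.55 in ouabain ears and 11.45, 8.10 and 8.01 in control ears. Replicate 1 was the highest in each of the 4 groups, and ouabain and control overlapped at both days. Of its other probe sets 1 (mean 6.84) also had its highest array in replicate 1 of each group, and the dimmest stayed between 4.13 and 4.69 on all 12 arrays.

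Rhag, the Rh-associated glycoprotein of red cells, was dim on the lowest arrays, so no fold between arrays is given for it. It had 4.57, 3.79 and 3.76 in ouabain ears and 4.94, 3.56 and 4.14 in control ears at 3 days, and 6.03, 4.30 and 5.34 in ouabain ears and 8.61, 5.02 and 4.70 in control ears at 7 days. Control replicate 1 at 7 days stood highest for Rhag, with ouabain replicate 1 of that day next. Car1, the red cell carbonic anhydrase, had 5.65, 4.70 and 4.89 in ouabain ears and 5.83, 4.88 and 5.05 in control ears at 3 days, and 6.41, 5.27 and 6.25 in ouabain ears and 8.90, 6.25 and 5.39 in control ears at 7 days. Klf1, the erythroid Krüppel-like factor, had 6.46, 5.57 and 5.70 in ouabain ears and 6.75, 5.74 and 5.75 in control ears at 3 days, and 7.03, 6.15 and 6.81 in ouabain ears and 9.07, 6.83 and 6.63 in control ears at 7 days. Both genes were highest in replicate 1 of every group.

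The other erythroid members ranged more narrowly. Alas2, the first enzyme of haem synthesis in red cells, ran between 6.16 and 9.36, and Gata1 between 4.90 and 6.37, each with its maximum in control replicate 1 at 7 days. Gata1 was lowest of all arrays in ouabain replicate 1 at 3 days (4.90), unlike Slc4a1, Rhag, Car1 and Klf1. The class median relative to the 12-array mean was -0.14, -0.90 and -0.87 in ouabain ears and 0.03, -0.67 and -0.56 in control ears at 3 days. At 7 days it was 0.56, -0.11 and 0.15 in ouabain ears and 2.30, 0.22 and -0.01 in control ears. Klf1, Rhag, Car1 and Alas2 correlated with the mean of the other erythroid members at 0.99, 0.97, 0.96 and 0.92 over the 12 arrays, Slc4a1 at 0.82 and Gata1 at 0.79.

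Epb42 and Hba-a1 correlated least with the class, at 0.22 and -0.24, and both were represented by dim probe sets. The probe set used for Epb42, the membrane protein 4.2 of red cells, averaged 4.0. The other Epb42 probe set reached 5.46 in control replicate 1 at 7 days and lay between 2.93 and 3.49 on the other 11 arrays. Hba-a1, an alpha-globin gene, had 1 probe set of its own, which averaged 3.84 and varied by 0.34 over all arrays. Alpha-globin signal was nevertheless high, because 3 probe sets that carry the symbols of both Hba-a1 and Hba-a2 averaged 11.42, 13.49 and 13.93. The signals of these 2 genes cannot be separated on them. The first of the 3 had 11.23, 10.81 and 10.48 in ouabain ears and 11.45, 10.89 and 11.06 in control ears at 3 days, and 12.14, 11.70 and 11.37 in ouabain ears and 12.69, 11.69 and 11.51 in control ears at 7 days. Again control replicate 1 at 7 days was the highest array, and none of the 3 probe sets was called at either day.

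B cell markers varied less between arrays, apart from Ighm, the heavy chain of immunoglobulin M. The class had a median SD within groups of 0.25, and only Ighm (0.85) and Vpreb1 (0.43) lay above the 95th percentile of genes. Ighm had log2 levels of 8.70, 8.38 and 9.49 in ouabain ears and 8.02, 8.51 and 7.73 in control ears at 3 days. At 7 days its levels were 8.60, 8.16 and 8.83 in ouabain ears and 10.67, 8.54 and 7.74 in control ears, so 1 control array again exceeded all others. Of its further probe sets 1 (mean 6.94) had the same highest array, at 8.89, and the other 9 stayed between 3.28 and 6.62. Vpreb1, a part of the surrogate light chain, had 4.57, 4.57 and 4.38 in ouabain ears and 4.28, 4.34 and 4.38 in control ears at 3 days, and 4.86, 4.53 and 5.13 in ouabain ears and 5.82, 4.63 and 4.30 in control ears at 7 days. Its maximum too lay in control replicate 1 at 7 days.

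Dntt, the terminal transferase that adds bases at antibody gene joints, and Spib, a transcription factor of the Ets family, stayed dim throughout. Dntt had 4.52, 4.70 and 4.46 in ouabain ears and 4.80, 4.51 and 4.73 in control ears at 3 days, and 4.51, 4.46 and 4.72 in ouabain ears and 5.35, 4.87 and 4.41 in control ears at 7 days. Spib had 4.24, 4.42 and 4.43 in ouabain ears and 4.27, 4.57 and 4.68 in control ears at 3 days, and 4.67, 4.49 and 4.38 in ouabain ears and 5.20, 4.57 and 4.39 in control ears at 7 days. Both had their maximum in control replicate 1 at 7 days, as did Cd79b (a chain of the B cell receptor, up to 5.59), Vpreb3 (6.0), Ms4a1 (CD20, 4.89) and Rag1 (a recombinase of antigen receptor genes, 5.19). In all 11 of 13 B cell markers were highest in that array among the 7-day controls, against 30.2% of all genes. The remaining members Cd79a, the partner chain of Cd79b, Pax5, the B lineage factor, and Igll1, the lambda5 part of the surrogate light chain, had group SDs pooled to 0.21, 0.27 and 0.21.

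T cell markers were flat. Cd3e had 6.42, 6.30 and 6.28 in ouabain ears and 6.31, 6.18 and 6.31 in control ears at 3 days, and 6.20, 6.34 and 6.30 in ouabain ears and 6.45, 6.47 and 6.25 in control ears at 7 days. Cd3g, another chain of the T cell receptor complex, lay between 3.64 and 4.25, where levels are dim. Its values were 3.76, 4.05 and 3.64 in ouabain ears and 3.76, 3.88 and 3.96 in control ears at 3 days, and 3.88, 4.25 and 3.90 in ouabain ears and 4.02, 3.79 and 3.92 in control ears at 7 days. Cd8a, the CD8 alpha chain, had 5.19, 5.44 and 5.27 in ouabain ears and 5.29, 5.12 and 5.19 in control ears at 3 days, and 5.20, 5.41 and 5.11 in ouabain ears and 5.25, 5.07 and 5.19 in control ears at 7 days. All T cell groups overlapped, and the median SD within groups was 0.12 beside 0.14 for all genes.

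**Figure D2:**
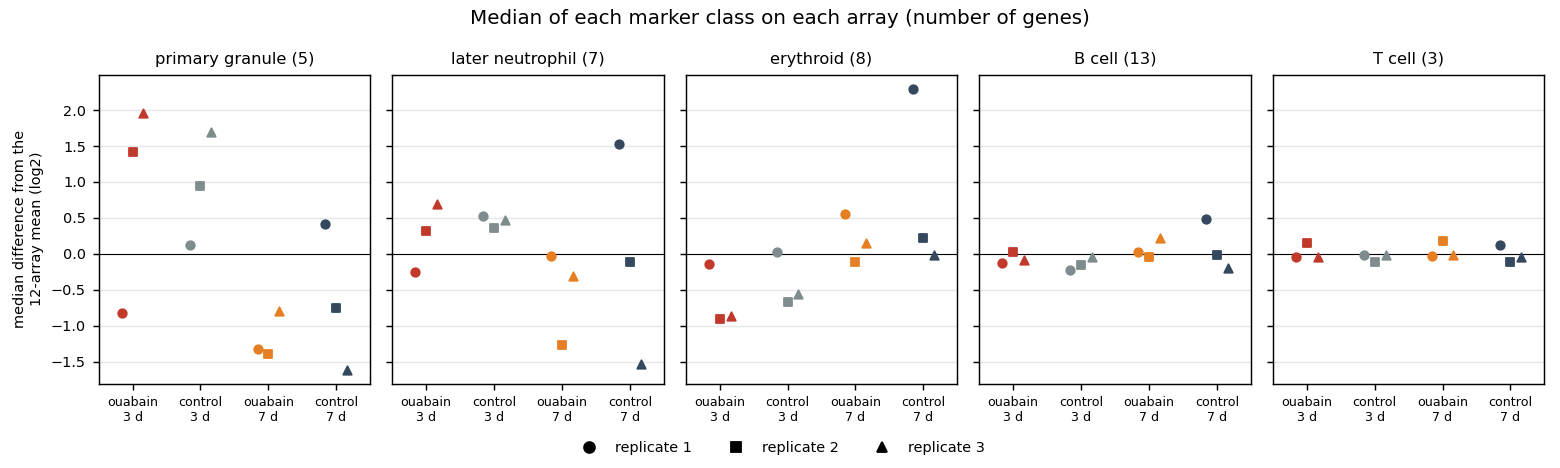
Median difference of each marker class from its 12-array mean (vertical axis, log2) on every array, by group; symbols give the replicate number. The primary granule set lay above 0 on 5 of 6 arrays of 3 days, and the erythroid set reached 2.30 in control replicate 1 at 7 days, whereas T cell medians stayed between -0.12 and 0.18.

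Spread between arrays was thus the main feature of the neutrophil and erythroid markers. In all 20 of 37 members lay above the 95th percentile of genes for the SD within groups (12 neutrophil, 6 erythroid and 2 B cell). Control replicate 1 at 7 days was the highest of its group for 34 of 37 members (91.9%, against 30.2% of all genes) and the highest of all 12 arrays for 22. Control replicate 3 at 7 days was the lowest of its group for 31 (83.8%, against 35.4%). The arrays were normalized to 1 distribution, so their overall levels cannot be compared. Cell cycle genes went along in that group, where the median of 28 genes was 0.57 in replicate 1 and -0.64 and -0.68 in the others, and the part of dividing cells in the pattern was not tested.

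**Figure D3:**
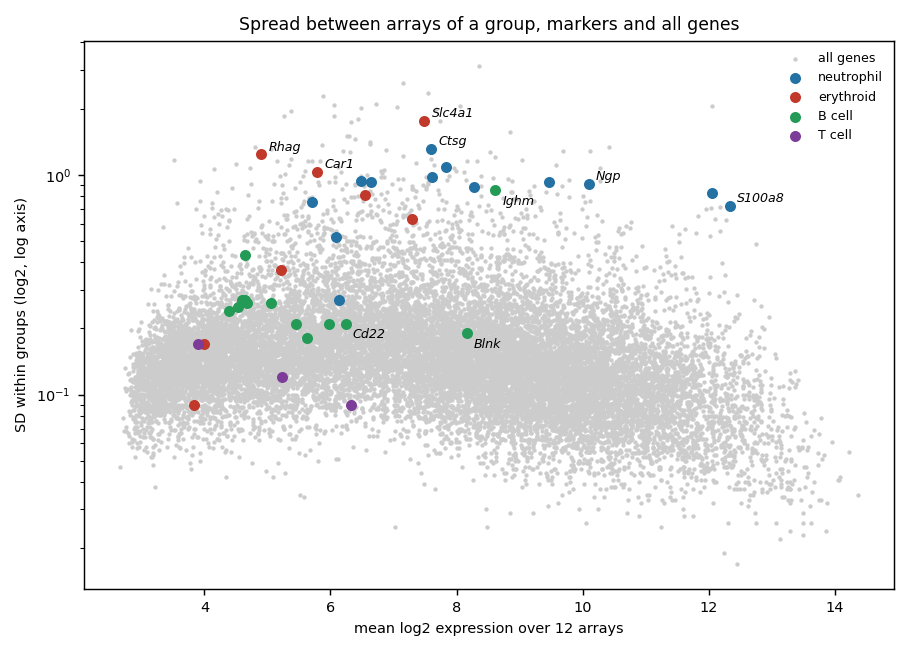
SD within groups (vertical axis, log2, on a log axis) against mean log2 expression over 12 arrays (horizontal axis) for all 18193 genes in grey and the 37 markers by class. Most neutrophil and erythroid markers lie at the upper edge, with Slc4a1 at 1.76 and Ctsg at 1.31, whereas Blnk (0.19) and Cd22 (0.21) lie among ordinary genes.

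The question put to the ouabain arrays was whether the injured ear differed from the untreated ear in these markers. It did for Blnk and Cd22 and not, by this test, for the other 35 members. A call needed a fold above 1.5 and, in limma, an adjusted p under 0.05 (Benjamini-Hochberg, over all probe sets). At 3 days 2 of 37 members were called higher, where 7.51% of all genes were, and 0 lower, where 8.06% were. At 7 days 2 were called higher, beside 7.57% of genes, and 0 lower, beside 8.2%. At an unadjusted p under 0.05, 3 members passed at each day, beside 39.3% of genes at 3 days and 42.2% at 7 days, and the methods' test at unadjusted p with the fold threshold called 2 at each day. The groups did not overlap for 4 of 37 members at 3 days (10.8%, against 43.6% of genes), namely Mmp8, Blnk, Cd22 and Igll1, and for Blnk and Cd22 at 7 days (5.41%, against 46.1%).

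Blnk, an adaptor protein of B cell receptor signalling that macrophages also make, had log2 levels of 8.54, 8.75 and 8.93 in ouabain ears and 7.19, 7.57 and 7.30 in control ears at 3 days. At 7 days its levels were 8.96, 8.95 and 9.0 in ouabain ears and 7.62, 7.27 and 7.78 in control ears. Every ouabain array stood above every control array. limma gave a log2 fold change of 1.39 at 3 days (SE 0.14, adjusted p = 2.28e-05) and of 1.41 at 7 days (SE 0.14, adjusted p = 1.97e-05), which is 2.62-fold and 2.66-fold. Cd22, an inhibitory lectin of the B cell surface, had 6.43, 6.58 and 6.72 in ouabain ears and 5.78, 5.52 and 6.23 in control ears at 3 days, and 6.56, 6.83 and 6.82 in ouabain ears and 5.86, 5.76 and 5.74 in control ears at 7 days. Its groups too were apart at both days, with control replicate 3 at 3 days closest to the ouabain arrays. For Cd22 limma gave 0.73 on the log2 scale at 3 days (SE 0.15, adjusted p = 0.00391) and 0.95 at 7 days (SE 0.15, adjusted p = 0.000742). The 3-day call of Cd22 was lost without control replicate 2 (0.57, adjusted p = 0.0155, under the fold threshold). The second Cd22 probe set averaged 3.64 and gave 0.26 and 0.36 without a call.

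Between arrays of a group Blnk correlated with the mean of the other B cell members at -0.01 and Cd22 at 0.21. Of the members that were not called Pax5 had 0.0 and Rag1 0.25, and the others were higher. No other B cell marker was called. Cd79a lay between 5.16 and 5.80, Ms4a1 between 3.99 and 4.89 and Pax5 between 4.31 and 5.01 on all arrays, whereas Ighm lay between 7.73 and 10.67 and gave 0.77 at 3 days without a call. Markers of monocytes and macrophages were called higher for 21 of 21 genes at 3 days and 19 of 21 at 7 days. The level summed over that list (log2 of the sum) was 15.07 to 15.31 in ouabain ears and 13.01 to 13.41 in control ears at 3 days, and 15.03 to 15.14 in ouabain ears and 13.17 to 13.50 in control ears at 7 days. The part of these cells in the higher Blnk and Cd22 levels was not tested.

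**Figure D4:**
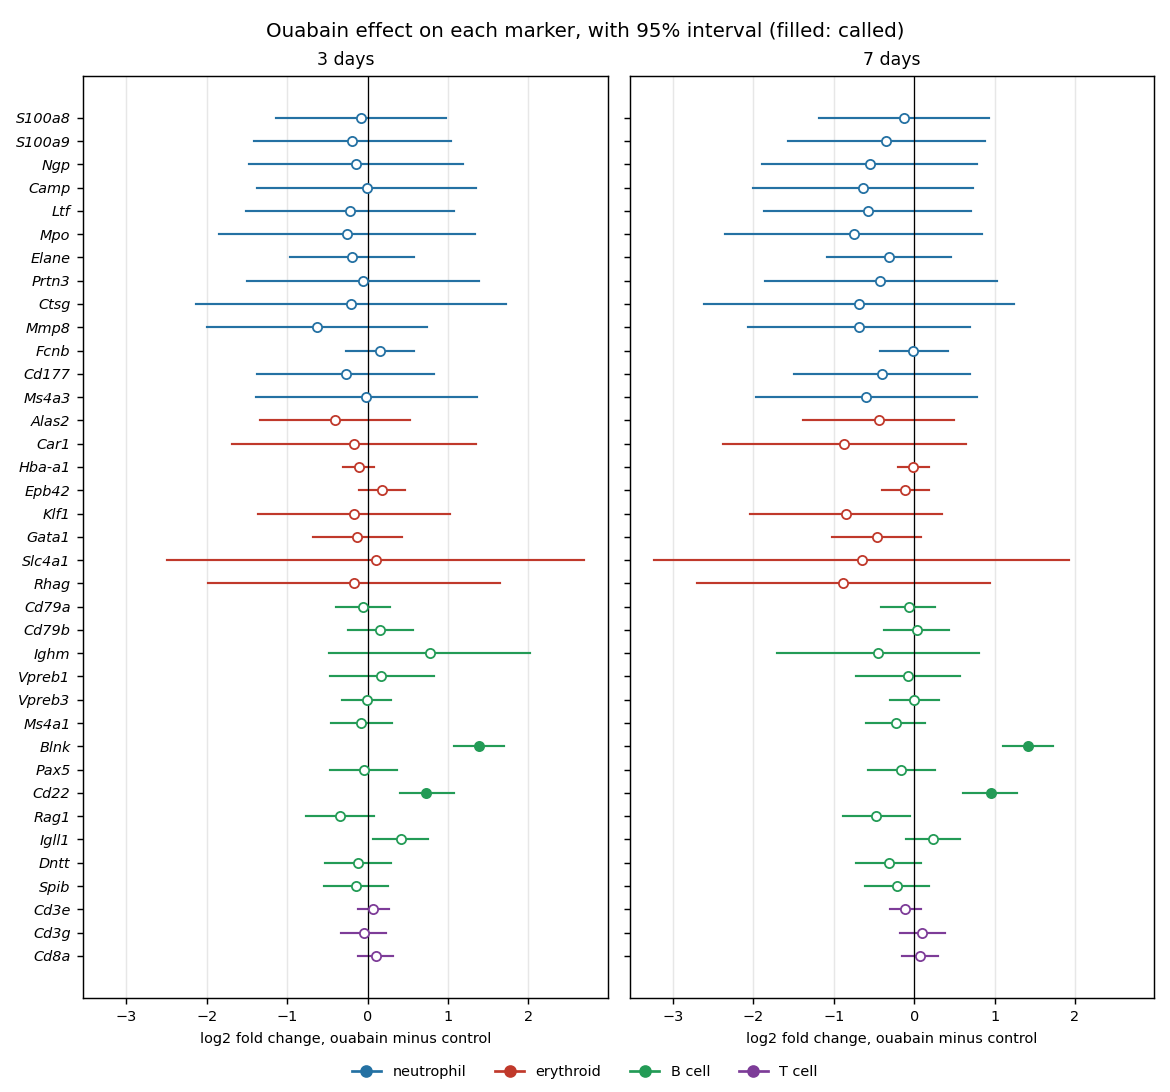
Log2 fold change of each marker, ouabain minus control (horizontal axis), at 3 days (left) and 7 days (right) with 95% intervals from limma; filled points were called. Blnk and Cd22 lie above 0 at both days, and the intervals of Slc4a1 run from -2.49 to 2.69 (3 days) and from -3.24 to 1.93 (7 days).

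For neutrophil markers the ouabain difference was small beside its error. Over the 13 genes the log2 fold change had a median of -0.19 (3 days) and -0.55 (7 days), beside 0.01 and 0.03 for all genes, and the lowest adjusted p was 0.574 and 0.493. Among later-set genes S100a8 gave -0.08 (95% interval -1.14 to 0.98) and -0.13 (-1.18 to 0.93) at 3 and 7 days. Over the whole class the 7-day values ran from -0.75 for Mpo to -0.01 for Fcnb, and 13 of 13 were below 0. This sign rested on 1 array, since the 7-day median was 0.16 without control replicate 1, and -1.06 without control replicate 3. With all arrays Ngp gave -0.14 and -0.55 and Camp -0.01 and -0.64 at 3 and 7 days, without a call. Without control replicate 3 Ngp (-1.40, adjusted p = 0.0342) and Camp (-1.47, adjusted p = 0.0386) were called lower at 7 days. At 3 days the median was 0.18 without ouabain replicate 1 and -0.52 without ouabain replicate 3.

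With all arrays the remaining neutrophil members gave no call, with differences of varied size. S100a9 had -0.19 and -0.35 at 3 and 7 days, Ltf -0.22 and -0.58, Cd177 -0.27 and -0.40 and Mmp8 -0.63 and -0.69, all on the log2 scale and none called. Of the primary granule genes Elane had -0.19 and -0.31, Prtn3 -0.06 and -0.42, Ctsg -0.21 and -0.69 and Ms4a3 -0.02 and -0.60. The 95% interval at 3 days was -2.13 to 1.72 for Ctsg, -1.85 to 1.33 for Mpo and -1.50 to 1.38 for Prtn3.

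Erythroid markers had a median of -0.15 (3 days) and -0.56 (7 days) on the same scale, and their lowest adjusted p was 0.418 and 0.225. At 7 days 8 of 8 values were below 0, from -0.88 for Rhag, -0.87 for Car1 and -0.85 for Klf1 to -0.01 for Hba-a1. Slc4a1 had 0.10 and -0.65 at 3 and 7 days, Alas2 -0.41 and -0.44, Gata1 -0.13 and -0.46 and Epb42 0.18 and -0.11. Here too the 7-day median turned to 0.08 without control replicate 1 and went to -1.04 without control replicate 3, where Gata1 was called lower (-0.74, adjusted p = 0.0386). At 3 days the erythroid median was 0.14 without control replicate 1 and -0.44 without ouabain replicate 1.

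The other B and T cell members gave no call. Ighm had the largest 3-day value among them, at 0.77 (95% interval -0.48 to 2.02), and -0.45 (-1.70 to 0.80) at 7 days. Igll1 had 0.41 (adjusted p = 0.0819) at 3 days and 0.23 at 7 days. Rag1 had -0.34 and -0.47 (adjusted p = 0.265 and 0.102 at 3 and 7 days), and was called lower at 7 days without ouabain replicate 3 (-0.69, adjusted p = 0.0123). Cd79a, Cd79b, Vpreb1, Vpreb3, Ms4a1, Pax5, Dntt and Spib lay between -0.14 and 0.17 in the 3-day comparison and between -0.31 and 0.03 at 7 days. Cd3e had 0.07 and -0.11, Cd3g -0.05 and 0.10 and Cd8a 0.10 and 0.07, with 95% intervals of -0.33 to 0.23 for Cd3g at 3 days, the widest at that day.

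The response at 7 days minus that at 3 days was called for 0 of 37 members, beside 1.17% of genes. None passed an unadjusted p under 0.05 either, where 16.1% of genes did. The differences ran from -1.22 (SE 0.81) for Ighm to 0.21 (SE 0.22) for Cd22, and 32 of 37 were below 0, beside 8870 of 18193 genes. Control replicate 1 at 7 days was the highest of its group for 34 of 37 members. The signs therefore share that array and are not separate observations. The methods' test has no form for this comparison.

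Between the controls of 7 and 3 days 0 of 37 members passed the adjusted test, beside 0.0165% of genes. At an unadjusted p under 0.05, 10 of 37 members passed, beside 7.93% of genes, and the methods' test with the fold threshold called 0. The 10 were Prtn3, Ctsg, Ms4a3, Alas2, Car1, Epb42, Klf1, Slc4a1, Rhag and Rag1. The median log2 difference, 7 minus 3 days, was -0.71 for the 13 neutrophil markers. It was -1.54 for the primary granule set and -0.35 for the later set, which were separated with these values in view. Ctsg averaged 6.73 ± 1.16 at 7 days and 8.92 ± 1.08 at 3 days (SD, n = 3 each). Erythroid markers had a median of 1.28 with 0 of 8 below 0, B cell markers 0.21 and T cell markers 0.04. Slc4a1 averaged 9.19 ± 1.96 at 7 days and 6.07 ± 2.08 at 3 days, a difference of 3.12 (SE 1.19, adjusted p = 0.697). Without the 4 arrays numbered 1, a setting chosen after the data were seen, Ctsg and Slc4a1 were called. Among the controls of each day replicate 1 lay apart from the others for both genes. Leaving it out narrowed their spread, so these calls are no independent test. The share of all genes called under that setting was not worked out. Day, animals and preparation cannot be told apart in this comparison.

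Other genes of the same lineages were counted from lists. Over all genes 7.51% were called higher and 8.06% lower at 3 days, and 7.57% higher and 8.2% lower at 7 days. Of 24 further neutrophil genes 5 were called higher and 1 lower at each day. The largest changes were in Chil1 (2.32), Clec4d (2.05) and Lyz2 (1.87) at 3 days and in Ceacam10 (-3.19), Clec4d (2.23) and Lyz2 (1.73) at 7 days. Lyz2, a lysozyme, and Clec4d, a lectin receptor, are also made by macrophages. Of 27 further erythroid genes 0 were called higher and 4 lower at each day, led by Ank1 (-2.79), Add2 (-2.56) and Tfrc (-1.50) at 3 days and by Add2 (-3.44), Ank1 (-3.10) and Tfrc (-2.28) at 7 days. Ank1 and Add2 encode membrane skeleton proteins that neurons also make, and Tfrc is the transferrin receptor. The neuronal list fell at the same days, and its part in these 4 calls was not tested.

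Against those shares, the lymphoid lists held about as many calls as all genes or fewer, and the progenitor list held more genes called higher. Of 22 further B cell genes 1 was higher at 3 days (Cd37, 0.60) and 2 at 7 days (Il7r, 0.74, and Cd37, 0.61). Of 29 T and natural killer cell genes Gzmb was higher (0.71) and Bcl11b lower (-0.75) at 3 days, and Gzmb (1.22) and Cd28 (0.96) were higher at 7 days. Of 16 progenitor genes 3 were higher and 2 lower at 3 days, and 7 higher and 1 lower at 7 days, with Flt3 at -2.17 and -2.74, Cd48 at 1.73 and 1.98 and Csf2rb at 1.27 and 1.41 at 3 and 7 days. The monocyte and macrophage list rose at the same days, and its part in the progenitor calls was not tested. Platelet factor Pf4 was higher at 3 days (1.09), the only call among 15 platelet genes. Among 14 mast cell and eosinophil genes Siglecf was called at 7 days (0.81).

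Genes of bone cells were counted in the same way, to be read beside the shares of all genes given above. Of 15 osteoclast genes Atp6v0d2 (1.04) and Tcirg1 (0.91) were higher at 3 days, and at 7 days Atp6v0d2 (1.31) and Tcirg1 (0.73) were higher and Atp6v1b2 (-1.18) was lower. The part of monocytes and macrophages in the osteoclast calls was not tested. Of 11 osteoblast and osteocyte genes Sost (-1.24) and Omd (-0.74) were lower at 3 days and Phex (0.95) was higher at 7 days. Col1a2, a collagen I chain, averaged 13.28. Of the 28 cell cycle genes 27 were higher at 3 days, led by Pbk (4.14), Bub1 (3.04) and Mki67 (3.02), and only Ccne2 was called at 7 days, lower (-1.09).

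A search over the 18193 genes named those whose levels, with group means removed, followed each class most closely over the 12 arrays. These are the extremes of a wide search on few arrays and carry no test. The erythroid members were followed by Ctse (Pearson r = 0.99), Ermap (0.971), Cldn13, Prss35, Fcmr, Trim10, Tal1, Hemgn, Agtr1a and Tspan33. Ermap, Trim10, Tal1 and Hemgn are themselves erythroid genes. The neutrophil members were followed by Wfdc21 (0.975), Rac2, Rrm1, Atp8b4, Lrmp, Polh, Ifitm6, Brca1, Cdca5 and Trem3. Rac2 is a GTPase of blood cells, whereas Rrm1, Brca1 and Cdca5 act in dividing cells.

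Within the neutrophil class the sets had different companions. The primary granule set was followed by Dna2 (0.979), Nkg7, Clec5a, Tfec, Vrk1, Depp1, Ctsb, Srm, Dap3 and Ncf4, and the later set by Fpr2 (0.983), a formyl peptide receptor of neutrophils, Wfdc21, Olfr159, Chil3, Nuf2, Adipoq, Aspm, Ikzf1, Lrmp and Cdca8. The B cell members were followed by Pilra (0.992), Itga4, Nxpe2, Lyz2, Birc5, Pttg1, Ikzf1, Cdkn3, Sec14l2 and Cdk1. Of these Birc5, Pttg1, Cdkn3 and Cdk1 belong to the cell cycle. The T cell members were followed by Zscan5b (0.951), Sim1, Azin2, Slc22a16, Ncr1, Zfp750, Wnt1, Hps1, Tsix and Ntn3. Each T cell member itself correlated with the mean of the others at 0.08 to 0.64.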

How the data were processed

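The deposited values were used as the authors made them, as log2 expression values per probe set from RMA (background correction, quantile normalization and summary) in the Affymetrix Expression Console. Of 45101 probe sets 64 controls were left out. Of the 45037 tested, 34945 carried 1 symbol in the platform annotation, 932 several and 9160 none. All 12 arrays entered 1 fit of 4 group means with limma 3.58.1 in R 4.3.3, unpaired and with the fold threshold of 1.5 as in the methods of the study, and Benjamini-Hochberg adjustment over all probe sets. Summaries, promoter searches and plots used Python 3.11.15. The fit was tested on simulated data. Members and lists were chosen with earlier results of these data known. The probe sets used for Slc4a1, Igll1, S100a8 and Ighm are of kinds that can also bind similar transcripts. All members are named. Values per array are given for members called at either day and for the 4 of each class with the largest range within a group. Of each list up to 3 called genes per day and of each class the 10 genes most alike are named. Equal replicate numbers were not taken as pairs. The sources do not tie them to the same animals. The correlation of same-numbered deviations was 0.334, 0.089 and 0.177 at 3 days and 0.277, 0.155 and 0.019 at 7 days. Ouabain and control arrays with unequal numbers gave -0.029, -0.273, -0.258, 0.146, -0.145 and -0.048 on day 3. On day 7 they gave -0.334, 0.011, -0.107, -0.028, -0.148 and 0.152. Same-numbered values were thus all positive. Deviations from a group mean cancel within the group, so positive same-numbered values bring negative values among the others. The mostly negative values of unequal numbers are therefore no separate observation. Whether equal numbers mark the same animals was not tested. The RNA input differs between the labels and the methods of the study. Alternatives were the methods' unpaired test, the arrays of 1 day alone, a replicate block, no fold threshold, a filter that kept the 24037 probe sets with 3 or more arrays above 6 (log2), 2 other scalings, a variance trend with robust moderation, array weights, the mean over probe sets of a gene, each array left out and, added after the data were seen, all 4 arrays numbered 1 left out.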

Additional observations from a re-analysis of the deposited data

How the results depend on the processing

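The count of members called at 3 days was 2 under most settings. It was 1 under the methods' test with adjusted p (Cd22, adjusted p = 0.123) and 1 where the probe sets of a gene were averaged (Cd22 0.50, adjusted p = 0.0262), and 1 to 2 when each array was left out in turn. At 7 days it was 2 to 5 when each array was left out, with 5 without control replicate 3. Under the replicate block 2 members were called at each day and 0 for the day difference, and the block changed no other call. Between the controls of 7 and 3 days 2 members were called without all 4 arrays numbered 1 and 0 under the other settings run. That setting was chosen after the data were seen, so the 2 calls are no independent test. The day difference gave 0 under every setting that could be run. Blnk kept its call at both days throughout (adjusted p up to 0.0219 at 3 days and 0.0157 at 7 days), and Cd22 at 7 days (0.000128 to 0.0148).

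Of 1746 values of single members under alternatives 4 gained a call, 3 lost one and 103 differed in sign without a call. Many of these fold changes could not move. Leaving out an array of 1 day leaves those of the other day as they were, and several settings change only the error. The total therefore overstates how far the results were tried. The low-value filter kept 22 of 37 members, so the B cell median there rested on 4 genes (0.75 at 3 days and 0.59 at 7 days). Of these Cd22 and Igll1 passed the filter mainly through their ouabain arrays. The filter thus favours genes that are higher with ouabain, and this median cannot measure an ouabain effect on the class. The probe sets of Hba-a1, Epb42, Cd3g and most B cell markers were dim, which limits what their differences can show.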
